A study of Mus musculus with 12 samples.

Results

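Rapamycin was compared with its ethanol vehicle in C2C12 myoblasts that carried an siRNA against Crebl2. These were 6 of the 12 libraries in the series, chosen by their titles: 3 labelled Crebl2 Rapa and 3 labelled Crebl2 EtOH. C2C12 is a mouse myoblast line that divides in serum and can fuse into muscle fibres, and it was grown here in DMEM with 10% FBS. The cells of all 6 libraries received the same siRNA against Crebl2 for 3 days, a single siRNA sequence per the labels, so no second siRNA separates the knockdown from effects of that sequence. The treated cells then received 20 nM rapamycin for 12 hours and the control cells ethanol for 12 hours. The other 6 libraries had the same 2 treatments with an siRNA against Renilla luciferase (Luc), a gene that mouse cells lack. They serve to ask where the rapamycin change differed between the siRNAs. All 12 libraries entered the same fit, so the Luc libraries also shaped its gene filter, scaling and estimate of spread. Nothing in the labels says that the 3 libraries of a group came from separate cultures, so the p-values measure only how these libraries varied, and part of that may be technical.

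Rapamycin binds the immunophilin FKBP12 and the complex inhibits mTORC1, the kinase complex that couples amino acids, insulin and growth factors to protein, lipid and nucleotide synthesis. Its substrates include the S6 kinases and the 4E-BP translation repressors, and it holds back autophagy. In myoblasts mTOR signalling is needed both for growth and for differentiation. Crebl2 is a small bZIP-domain protein related to the CREB transcription factors.

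Totals in the 6 libraries ranged from 33404087 to 42891015 counts, and these were the lowest and the highest of the whole series. Levels are given as CPM, a library's counts scaled to a common total by TMM. Genes counted as changed (called) where the quasi-likelihood test of edgeR, fitted to all 13247 tested genes, gave a p under 0.05 after Benjamini-Hochberg adjustment. Of the variance among the 6 libraries, 63% lay on a first component that placed the rapamycin libraries between 25.8 and 32.4 and the ethanol libraries between −32.1 and −28.6. Reads that fall on several listed transcripts of a gene are missing from the counts, so the share of a gene's exonic bases that belongs to a single transcript, its countable share, is given for genes of low share. Besides the shares given with the results, it was 49% for Foxm1, 24.7% for Mcm5, 33.9% for Mcm6, 19.2% for Dnmt1, 47% for Rpl27, 41.3% for Polr1c, 33.2% for Sqstm1, 38.4% for Sesn1, 34.9% for Bgn, 23.7% for Col6a3, 35.3% for Actb, 28.5% for Mymk and 42.6% for Mymx. The cells carried markers of myoblasts: Myod1 stood at 190 CPM in ethanol, Myf5 at 75.8 CPM, Cdh15 at 860 CPM and Des at 1493 CPM. Msc and Pax7 were lower, at 13.9 and 3.12 CPM. The 6 myoblast markers summed to 2438 to 2808 CPM in ethanol and 2487 to 2562 CPM in rapamycin. Des and Cdh15 made up most of this sum, within which Myod1 was called higher and Cdh15 and Msc lower. The 3 endothelial markers Pecam1, Cdh5 and Kdr stayed under 1 CPM in all 6 libraries, as did 3 of the 4 adipocyte markers. The macrophage genes Ptprc, Adgre1 and Csf1r were listed at 0 in all 6, with countable shares of 8.38%, 3.52% and 24.5%. Other genes of the macrophage and adipocyte lists were present: Cd14 stood at 30.9 CPM in ethanol and 29 CPM in rapamycin, and Lpl at 196 and 189 CPM, and neither was called. Of genes found in neurons, Nefl, Nefm and Tubb3 fell by 0.97, 1.22 and 1.24 and Stmn2 rose by 0.73. The neuronal Rbfox3 and Snap25 were listed at 0, with countable shares of 23.4% and 59.9%.

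Rapamycin changed 6001 genes in these cells, 45.3% of those tested. Of these, 2614 were higher (19.7% of tested genes) and 3387 lower (25.6%), with a median log2 fold change of −0.01 over all tested genes. Changes of at least 2-fold were seen for 333 of the higher and 528 of the lower genes, and 1797 called genes changed by less than 1.25-fold. The median size of a called change was 0.47 on the log2 scale. The rapamycin and ethanol libraries did not overlap for 5826 called genes (97.1%), against 53.6% of all tested genes. Of 10986 protein-coding genes 2230 were higher and 3213 lower (49.5% called). Of 1509 long noncoding RNAs 304 were higher and 115 lower (27.8% called). The share of long noncoding RNAs called higher was near the 19.7% over all tested genes, and what differed was their smaller share called lower. The protein-coding genes that rose at least 2-fold had a median level of 0.954 CPM, and those that fell at least 2-fold had one of 11.9 CPM.

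**Figure D1:**
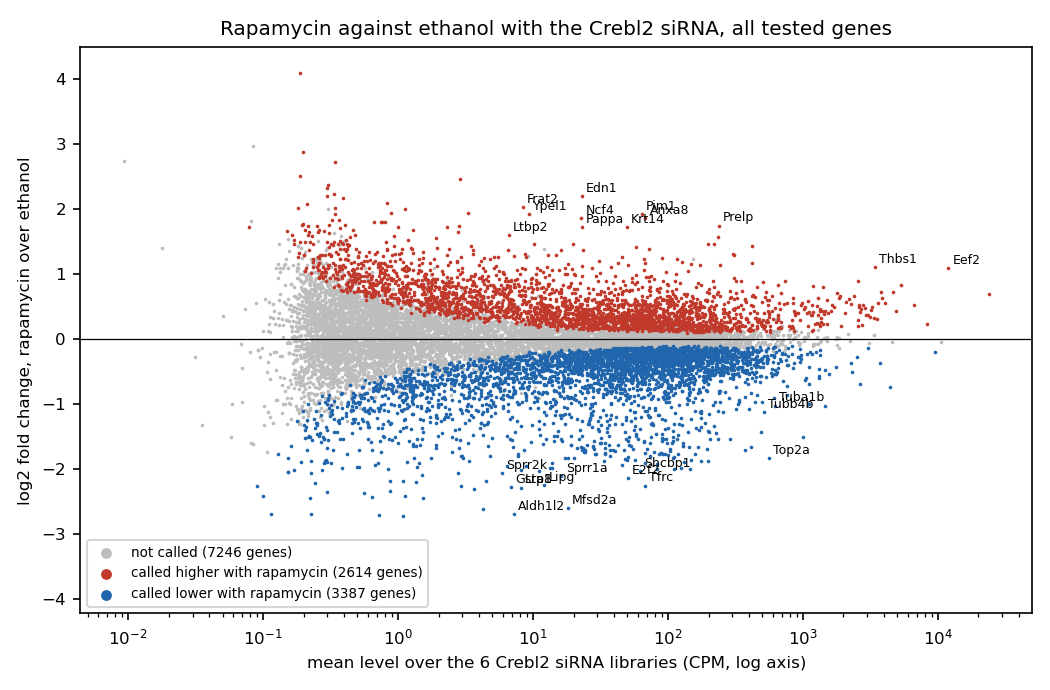
Log2 fold change of rapamycin over ethanol with the Crebl2 siRNA (vertical axis) against the mean level over the 6 libraries in CPM (horizontal log axis). Each point is 1 of 13247 tested genes, red for the 2614 called higher, blue for the 3387 called lower and grey for the rest. Named are the largest changes among protein-coding genes of at least 5 CPM without overlap and the most changed abundant genes.

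Crebl2 itself rose under rapamycin within the knockdown. It lies on chromosome 6 (134830154 to 134858931, GRCm38) and stood at 4.87, 7.41 and 6.02 CPM in the ethanol libraries and at 10.7, 8.97 and 9.49 CPM in the rapamycin libraries. The groups did not overlap, and the rise was 1.6-fold (log2 0.68, SE 0.12, adjusted p = 0.0002, edgeR). In an exact two-sided permutation test its p was 0.1, the smallest that 3 against 3 libraries allow. With the Luc siRNA it stood at 23.8, 25.3 and 26.2 CPM in ethanol and at 40, 36.4 and 36.3 CPM in rapamycin, above every Crebl2-siRNA library. The rise there was 0.58 on the log2 scale, and the test of the difference between the siRNAs did not call it (0.10, SE 0.15, adjusted p = 0.84, edgeR). Crebrf, whose product regulates CREB3 proteins, rose from 26.9 ± 4.95 to 64.8 ± 6.13 CPM (SD, n = 3; log2 1.27, adjusted p = 1.6e-07, edgeR). Of the 19 tested genes of the CREB family and its coactivators, 6 rose and 5 fell. The kinase Sik3 rose by 0.36. The 5 that fell were 3 without the first ethanol library and 3 without the second rapamycin library.

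Rises and falls were ranked among called protein-coding genes of at least 5 CPM without overlap, predicted genes left out. Within this set the 10 largest rises lay between 3.04-fold (Ltbp2) and 4.58-fold (Edn1). Edn1, which encodes the precursor of endothelin-1 (chromosome 13, 42301476 onward, GRCm38), stood at 7.32, 9.03 and 8.32 CPM in ethanol and at 38.4, 35.7 and 38.8 CPM in rapamycin. The groups stood far apart, and the rise was 4.58-fold (log2 2.20, SE 0.09, adjusted p = 3.4e-11, edgeR). Pim1, a serine/threonine kinase, stood at 27.4, 24.6 and 28 CPM in ethanol and at 101, 99.3 and 103 CPM in rapamycin, without overlap (3.79-fold). Frat2, which binds the kinase GSK3, rose 4.07-fold from 3.31 to 13.5 CPM. Ncf4, a subunit of the phagocyte NADPH oxidase, rose 3.66-fold to 35.8 ± 2 CPM (SD, n = 3). Pappa, a protease that cleaves IGF-binding proteins, stood at 12.5, 10.1 and 9.18 CPM in ethanol and at 33.8, 36.5 and 35.5 CPM in rapamycin, a rise of 3.33-fold. Prelp, a leucine-rich proteoglycan, rose 3.35-fold to 377, 297 and 427 CPM, and the keratin Krt14 rose 3.31-fold to 76 ± 5.52 CPM (SD, n = 3). Ypel1 rose 3.81-fold, and Anxa8, an annexin with a countable share of 35.7%, rose 3.65-fold. Ltbp2, a TGF-beta binding matrix protein, rose 3.04-fold to 9.98 CPM, with a countable share of only 2.47%. Adjusted p-values of the 10 genes lay at 3.1e-08 or below (edgeR).

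Within the same set of genes of at least 5 CPM, the 10 largest falls lay between 4.08-fold (Shcbp1) and 6.45-fold (Aldh1l2). Aldh1l2, the mitochondrial 10-formyltetrahydrofolate dehydrogenase, stood at 13.6, 11.9 and 12.1 CPM in ethanol and at 1.75, 2.09 and 1.98 CPM in rapamycin, a 6.45-fold fall without overlap (log2 −2.69, SE 0.11, adjusted p = 5.9e-11, edgeR; countable share 36.4%). Mfsd2a, a transporter of lysophosphatidylcholine (chromosome 4, 122946850 onward, GRCm38), stood at 31.4, 29.2 and 32.9 CPM in ethanol and at 5.18, 5.8 and 4.44 CPM in rapamycin. That was a 6.06-fold fall with every rapamycin library far below the ethanol libraries. Tfrc, the transferrin receptor that imports iron, stood at 97.4, 137 and 100 CPM in ethanol and at 25.1, 22.1 and 22.8 CPM in rapamycin, a 4.77-fold fall in which the second ethanol library was the high one. Lrp8, a receptor for apolipoprotein E and reelin (countable share 26.4%), fell 4.87-fold, and Lipg, the endothelial lipase, fell 4.72-fold. E2f2, a transcription factor of the cell cycle, fell 4.38-fold from 82.1 ± 3.83 to 18.8 ± 3.48 CPM (SD, n = 3). Shcbp1 fell 4.08-fold from 100 to 24.6 CPM. Gsta1, a glutathione transferase, fell 4.81-fold, and Sprr1a and Sprr2k, small proline-rich proteins, fell 4.3-fold and 4.18-fold. Gsta1, Sprr1a and Sprr2k have closely related neighbours, so reads may be split among copies and their values are uncertain. Adjusted p-values of the 10 genes lay at 1.5e-08 or below (edgeR).

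**Figure D2:**
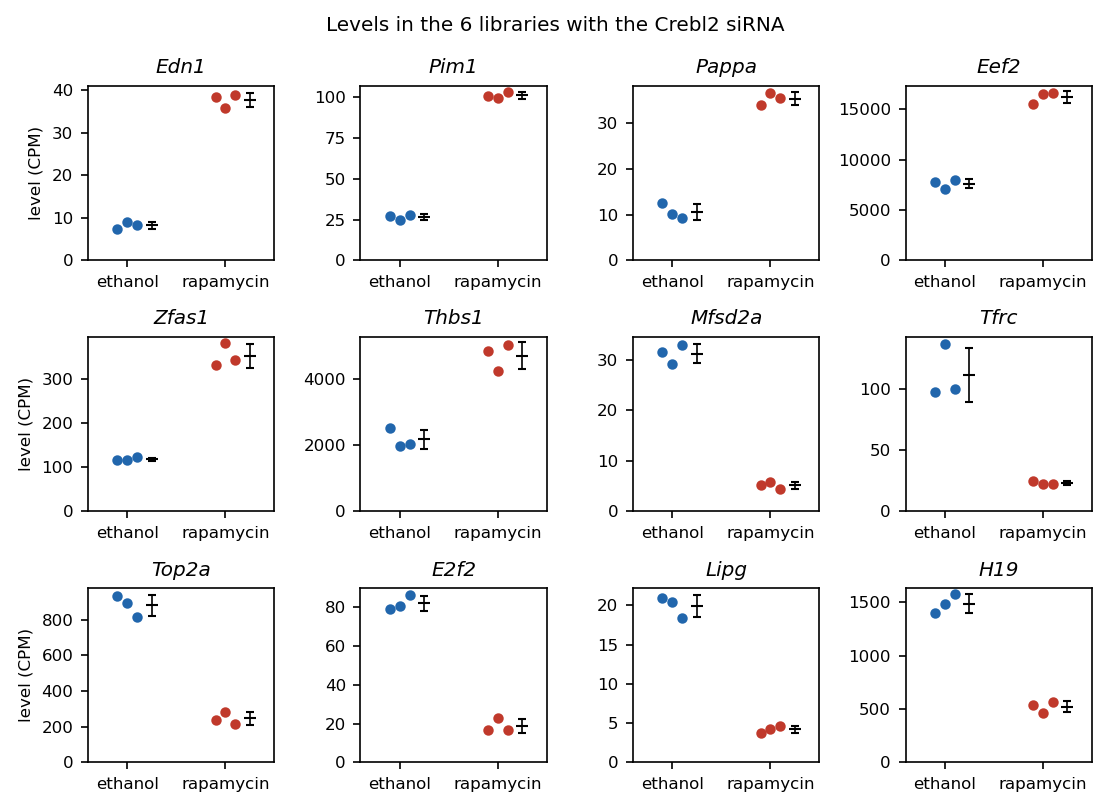
Level in CPM of 12 genes in the 3 ethanol (blue) and 3 rapamycin (red) libraries with the Crebl2 siRNA. Points are libraries, and the black mark beside them is the mean with its SD. In each panel the 2 groups do not overlap, from Edn1 (8.22 to 37.6 CPM) to H19 (1485 to 522 CPM).

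Among protein-coding genes of at least 500 CPM, the largest changes were in the elongation factor Eef2, the matrix protein Thbs1, the topoisomerase Top2a and 2 tubulins. Eef2, the GTPase that moves the ribosome along the mRNA, stood at 7831, 7126 and 7954 CPM in ethanol and at 15578, 16517 and 16652 CPM in rapamycin. Every rapamycin library stood above every ethanol library (2.13-fold, log2 1.09, SE 0.05, adjusted p = 2.1e-10, edgeR). Thbs1 rose from 2176 ± 282 to 4685 ± 407 CPM (SD, n = 3). Top2a, which untangles chromosomes, fell from 880 ± 61.5 to 247 ± 35.1 CPM, Tubb4b from 708 ± 28.2 to 326 ± 28.8 CPM and Tuba1b from 830 ± 62.6 to 408 ± 52.5 CPM (SD, n = 3).

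The members of the gene lists are described next, by list. The count of called members in each list is to be read against the 19.7% called higher and 25.6% called lower over all tested genes, and a list's median against the −0.01 over all genes.

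**Figure D3:**
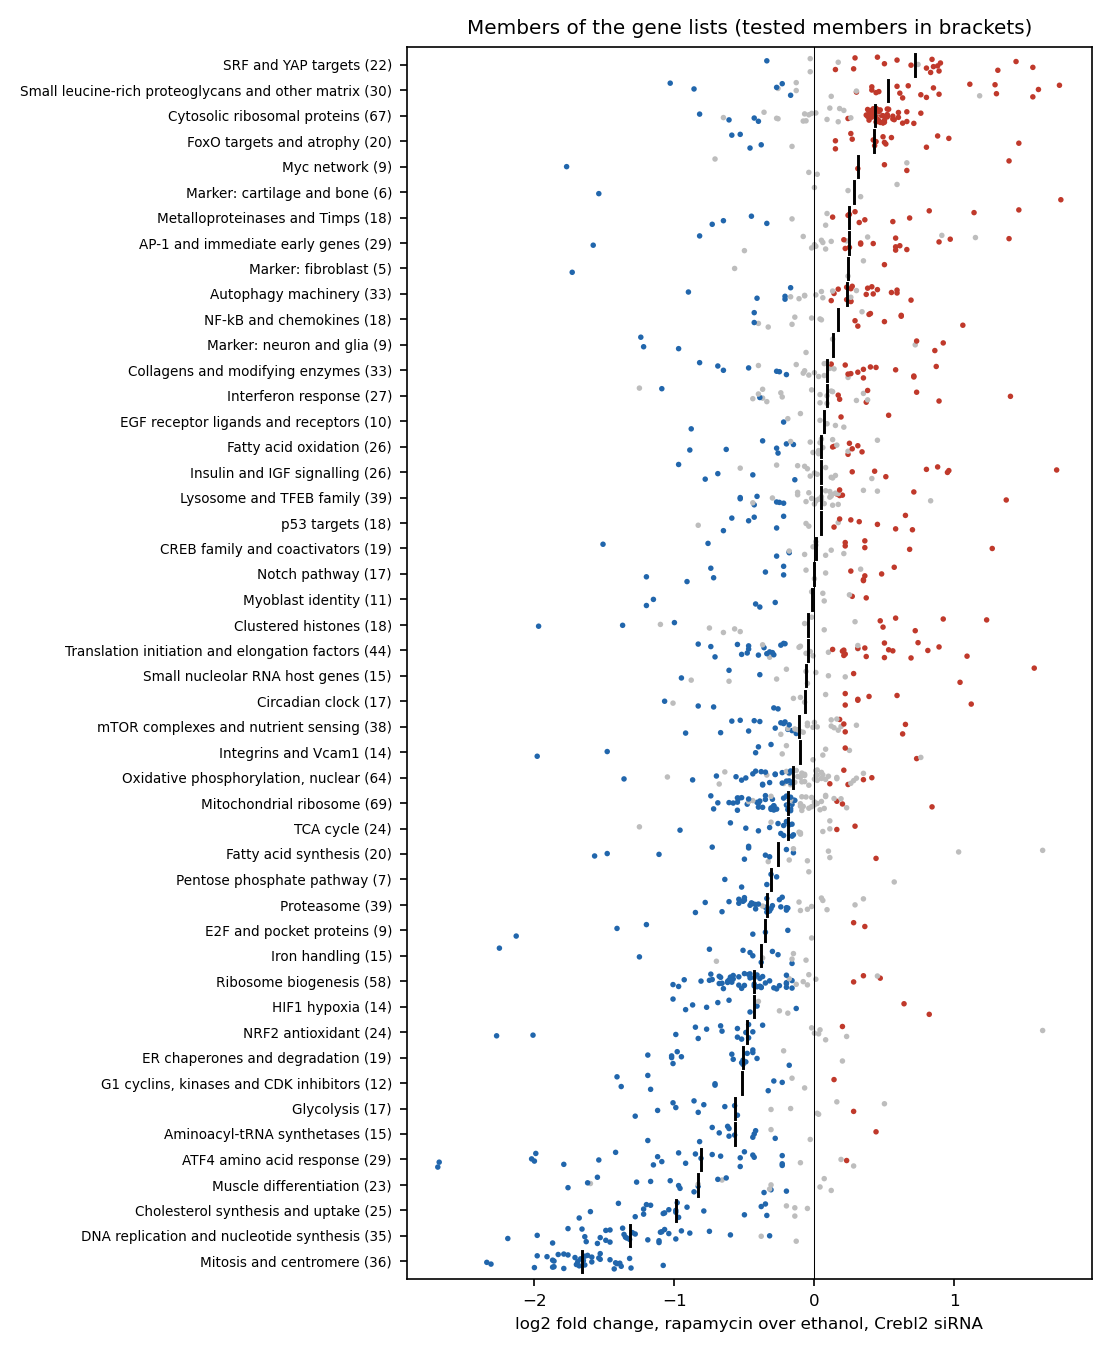
Log2 fold change of rapamycin over ethanol with the Crebl2 siRNA (horizontal axis) for the tested members of each gene list with at least 5 of them (rows, with the number tested). Points are genes, red where called higher, blue where called lower and grey where not called, and the black bar is the list's median. The medians run from −1.66 for mitosis and centromere to 0.72 for SRF and YAP targets.

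Cell division genes fell together. All 36 tested genes of mitosis and the centromere fell, with log2 changes from −2.34 to −1.08 and a median of −1.66. Their summed level fell from 5808 ± 291 to 1843 ± 191 CPM (SD, n = 3), without overlap between the groups. Plk1, the polo kinase that drives entry into mitosis, stood at 202, 186 and 206 CPM in ethanol and at 46.7, 57 and 47.4 CPM in rapamycin (log2 −1.98, SE 0.07, adjusted p = 2.1e-11, edgeR). The spindle checkpoint kinase Bub1 went from 178 ± 18.5 to 44.4 ± 4.06 CPM and the spindle motor Kif11 from 275 ± 18.4 to 75.1 ± 9.69 CPM (SD, n = 3). Foxm1, the transcription factor of the mitotic genes, fell by 1.69 on the log2 scale, the cyclin Ccna2 by 1.86 and the proliferation marker Mki67 by 1.71. In bulk RNA, fewer dividing cells and less RNA per dividing cell cannot be told apart.

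Many promoters of these genes share 2 motifs. This list and those below were written from pathway knowledge, so lists and motifs may not be independent. The motif shares here and below are therefore a description. Promoters are from RefSeq (GRCm38.p6), from 250 bases before to 50 bases after the start site, and 8767 tested genes (66.2%) had one within 1000 bases of the start of their most counted transcript. Of 28 promoters of the mitosis list, 20 held the letters TTTGAA of the cell cycle homology region on either strand (71.4%, against 11.5% of all 8767) and 21 held CCAAT, the NF-Y box (75%, against 38.3%). The 2 motifs share no letters where printed here. Among genes that fell at least 2-fold, 27.9% of 365 promoters held TTTGAA and 55.6% held CCAAT, and among those that rose at least 2-fold the shares were 13.9% and 36.7% of 180. A match describes these letters and does not show a bound factor. The promoters of Plk1 (chr7:122159185-122159484, plus strand) and Kif11 (chr19:37376132-37376431, plus strand) are shown because both genes were among the most changed of the list and hold both motifs, which are in capitals (in Kif11 as the reverse complements).
Plk1: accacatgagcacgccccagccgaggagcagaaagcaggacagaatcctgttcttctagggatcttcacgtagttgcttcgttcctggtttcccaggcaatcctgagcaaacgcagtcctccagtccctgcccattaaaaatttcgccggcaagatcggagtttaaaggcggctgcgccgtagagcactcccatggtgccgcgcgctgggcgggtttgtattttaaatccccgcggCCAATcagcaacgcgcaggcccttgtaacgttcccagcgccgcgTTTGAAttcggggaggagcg
Kif11: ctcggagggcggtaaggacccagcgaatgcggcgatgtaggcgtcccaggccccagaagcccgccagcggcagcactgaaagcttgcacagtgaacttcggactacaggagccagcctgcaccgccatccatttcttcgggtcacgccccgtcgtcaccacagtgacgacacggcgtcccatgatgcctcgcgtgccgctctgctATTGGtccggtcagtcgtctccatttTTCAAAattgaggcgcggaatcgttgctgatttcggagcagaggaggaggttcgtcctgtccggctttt

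DNA replication and nucleotide synthesis genes fell with them. Of 35 tested genes 33 fell and none rose, with a median log2 change of −1.32, and their summed level went from 4082 ± 51.7 to 1674 ± 191 CPM (SD, n = 3) without overlap. Orc1, the largest subunit of the origin recognition complex, stood at 22.9, 22.4 and 21.1 CPM in ethanol and at 5.31, 7.11 and 4.44 CPM in rapamycin (log2 −1.98, SE 0.14, adjusted p = 1.2e-08, edgeR). Rrm2, the regulated subunit of ribonucleotide reductase, fell from 631 ± 4.76 to 199 ± 18.7 CPM and thymidine kinase Tk1 from 243 ± 7.09 to 72 ± 14.4 CPM (SD, n = 3). The helicase subunits Mcm2, Mcm3, Mcm4 and Mcm5 fell by 1.34, 1.53, 1.35 and 1.64 on the log2 scale, while Mcm7 fell by 0.32. Mcm6 and the methyltransferase Dnmt1 were not called, at log2 −0.38 and −0.13. The E2F motif was searched in 2 forms on either strand. GGCGGGAA stood in 4 of 28 promoters of this list (14.3%, against 4.23% of all 8767). GGCGCGAA stood in 5 of the 28 (17.9%, against 1.04%). The Orc1 promoter (chr4:108579204-108579503, plus strand) is shown with GGCGCGAA in capitals, since Orc1 had the largest fall among the list's genes of at least 5 CPM.
Orc1: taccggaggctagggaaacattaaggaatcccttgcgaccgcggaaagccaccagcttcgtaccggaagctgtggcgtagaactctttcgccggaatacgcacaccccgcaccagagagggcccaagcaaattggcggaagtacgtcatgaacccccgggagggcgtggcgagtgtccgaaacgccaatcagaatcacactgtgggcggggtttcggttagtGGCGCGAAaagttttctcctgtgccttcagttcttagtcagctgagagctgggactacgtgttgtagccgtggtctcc

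The regulators of the G1 phase fell less evenly. Of 12 tested cyclins, kinases and inhibitors 9 fell, 1 rose and 2 were not called. Cyclin E1 (Ccne1) went from 90.3 ± 3.12 to 34.7 ± 3.79 CPM (SD, n = 3), cyclin D2 (Ccnd2) fell by 1.17 on the log2 scale and cyclin D1 (Ccnd1) by 0.33. The inhibitors Cdkn2c and Cdkn2d fell by 1.41 and 1.19, and the inhibitor Cdkn1a was the member that rose (0.14). Among E2F and pocket proteins 6 of 9 fell and 2 rose: besides E2f2, the repressor E2f7 fell by 1.41 and the pocket protein Rbl1 by 1.20, while Rb1 and Tfdp2 rose by 0.36 and 0.28. In the Myc network the antagonist Mxd3 fell by 1.77 and the antagonists Mnt, Mxd4 and Mxd1 rose by 0.66, 0.50 and 0.31. Myc rose by 1.39 but from 0.263 CPM, with a countable share of 4.45%.

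Most genes of cytosolic ribosomal proteins rose, while most ribosome biogenesis genes fell. Of 67 tested cytosolic ribosomal proteins 46 rose and 4 fell, with a median log2 change of 0.43. Together they took 66699 ± 2413 CPM in ethanol and 93469 ± 4603 CPM in rapamycin (SD, n = 3), 1.4 times as much. Rps20 stood at 1819, 1758 and 1951 CPM in ethanol and at 2792, 3078 and 2876 CPM in rapamycin, without overlap (log2 0.66, SE 0.06, adjusted p = 1.4e-07, edgeR), and Rpl17 rose by 0.66 from 1471 CPM. The 4 that fell were Rpl18, Rpl27, Rpl34 and Rplp2, all at 15.8 CPM or less in ethanol. Ribosomal protein genes have many processed pseudogenes, so reads may be shared with copies.

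Translation factors split evenly, with 17 higher and 17 lower of 44 and a median of −0.05. Their summed level went from 43624 ± 965 to 66946 ± 1733 CPM (SD, n = 3), 1.53 times as much, and most of that rise was in Eef1a1 and Eef2. The elongation factor Eef1a1 rose from 18238 to 29511 CPM, the poly(A)-binding protein Pabpc1 from 2713 to 3843 CPM and Eif4b, which assists the initiation helicase, from 1787 ± 14.7 to 3308 ± 100 CPM (log2 0.89, SD, n = 3). Among the subunits of eIF3, Eif3f, Eif3e and Eif3h rose by 0.81, 0.56 and 0.53, while Eif3b and Eif3j1 fell by 0.32 and 0.47. The cap-binding protein Eif4e fell by 0.74 and the helicase Eif4a1 by 0.36.

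Many ribosomal protein and translation factor mRNAs begin with a C followed by a run of pyrimidines (the TOP motif), through which mTORC1 is known to control their translation. In the RefSeq starts a C with at least 4 further pyrimidines stood at the first base of 18.8% of 48 ribosomal protein genes and 2.37% of all 8767 genes, searched on the sense strand only. The share was 6.06% of 33 translation factor genes, 2.7% of all genes called higher and 0.556% of those that rose at least 2-fold. Eef2, Eif4b, Rpl4 and Eef1b2 did not have it in the table. The search for this start was chosen after the data had been seen, and a table start that is off by a few bases hides the motif. The first bases of Eif3f (chr7:108934415-108934434, plus strand) and Fau (chr19:6057947-6057966, plus strand) are shown as members that rose and hold it, with the pyrimidine run in capitals. Fau rose by 0.71 on the log2 scale from 10.3 CPM, with a countable share of 40.2%.
Eif3f: CTCTCTTTCTCggcaagatg
Fau: CTTCCTCTTTCTTgactcca

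Of 58 ribosome biogenesis genes 48 fell and 3 rose, with a median of −0.43. The nucleolar GTPase Gnl3 went from 161 ± 8.59 to 79.9 ± 2.45 CPM, the pseudouridine synthase Dkc1 from 129 ± 2.81 to 65.8 ± 3.17 CPM and the box C/D protein Nop56 from 185 ± 3.68 to 97 ± 8.08 CPM (SD, n = 3). The RNA polymerase I factor Rrn3 fell by 0.43, and Utp14a, Nob1 and Polr1c were the 3 that rose. Aminoacyl-tRNA synthetases fell in 12 of 15 cases, led among those of at least 5 CPM by Aars (530 ± 28.9 to 300 ± 15.6 CPM) and Vars (398 ± 41.8 to 240 ± 19 CPM, SD, n = 3), and by Nars, which fell by 0.68. Mitochondrial ribosomal proteins fell in 39 of 69 cases and rose in 3, with a median of −0.19, and Mrps6, Mrpl18 and Mrpl49 fell by 0.74, 0.72 and 0.61. Of 39 proteasome genes 29 fell and none rose, with a median of −0.34: the core subunits Psma1 and Psma3 fell by 0.85 and 0.66 and the lid subunits Psmd12 and Psmd14 by 0.78 and 0.61. Psma1 and Psmd12 had countable shares of 25.9% and 46.4%, and the fall of Psma1 was lost without the second ethanol or the third rapamycin library.

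Genes of the amino acid response, the targets of the transcription factor ATF4, fell broadly. Of 29 tested genes 25 fell and 1, Nupr1, rose, with a median log2 change of −0.81. Atf4 itself fell by 0.53 from 746 to 517 CPM. In the serine and one-carbon branch, the mitochondrial folate enzyme Mthfd2 stood at 134, 132 and 134 CPM in ethanol and at 32.7, 37.3 and 30.4 CPM in rapamycin, without overlap (log2 −2.00, SE 0.06, adjusted p = 1e-11, edgeR). Psat1, of serine synthesis, fell by 2.02 (countable share 32.8%), Phgdh by 1.54 and Shmt2 by 1.12. Among amino acid transporters Slc7a5 went from 232 to 58.3 CPM (log2 −1.99), Slc7a1 from 180 to 108 CPM and Slc1a5 from 66.4 to 41.6 CPM. The pseudokinase Trib3 stood at 10.4, 10.4 and 11.1 CPM in ethanol and at 4.01, 4.24 and 3.71 CPM in rapamycin, and Chac1, which degrades glutathione, went from 24 to 10.8 CPM.

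The amino acid response element TGATGNAA stood on either strand of 26.1% of 23 promoters of this list and of 44.4% of 9 promoters of tRNA synthetases, against 2.09% of all 8767. The promoters of Trib3 (chr2:152344011-152344310, minus strand) and Chac1 (chr2:119350992-119351291, plus strand) are shown because they had the largest falls among members of at least 5 CPM with the element, whose reverse complement is in capitals.
Trib3: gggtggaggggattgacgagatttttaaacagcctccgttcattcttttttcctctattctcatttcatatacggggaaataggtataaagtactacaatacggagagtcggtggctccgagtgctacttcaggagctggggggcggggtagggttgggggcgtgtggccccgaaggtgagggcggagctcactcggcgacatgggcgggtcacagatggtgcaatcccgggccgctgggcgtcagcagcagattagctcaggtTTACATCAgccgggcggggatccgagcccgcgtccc
Chac1: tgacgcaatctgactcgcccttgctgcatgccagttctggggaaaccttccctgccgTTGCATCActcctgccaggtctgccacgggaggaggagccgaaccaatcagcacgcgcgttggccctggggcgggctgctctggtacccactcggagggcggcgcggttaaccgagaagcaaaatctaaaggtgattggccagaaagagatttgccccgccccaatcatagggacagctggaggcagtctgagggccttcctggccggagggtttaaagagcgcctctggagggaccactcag

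Most genes of cholesterol synthesis fell. Of 25 tested genes of cholesterol synthesis and uptake 21 fell and none rose, with a median of −0.99 and a summed level of 4117 ± 114 CPM in ethanol and 2398 ± 72.8 CPM in rapamycin (SD, n = 3). Idi1, the isopentenyl diphosphate isomerase, stood at 146, 181 and 160 CPM in ethanol and at 54.5, 56.3 and 50.2 CPM in rapamycin (log2 −1.60, SE 0.08, adjusted p = 2.9e-10, edgeR). Hmgcs1, an early enzyme of the pathway, fell by 1.07 and the sterol sensor Insig1 by 0.79. Acat2 fell by 1.68, with a countable share of 37.5%, and the sterol carrier Stard4 went from 80.8 ± 7.45 to 30.6 ± 1.24 CPM (SD, n = 3). Srebf2, the transcription factor of the pathway, fell by 0.35 and Srebf1 by 0.47. Of 20 genes of fatty acid synthesis 11 fell and 1 rose: the elongase Elovl6 went from 135 ± 7.01 to 45.3 ± 1.85 CPM, the desaturase Fads2 from 318 ± 20.1 to 148 ± 5.83 CPM and the abundant desaturase Scd2 from 5490 ± 30.9 to 3315 ± 43.9 CPM (SD, n = 3). CCAAT stood in 82.4% of 17 promoters of the cholesterol list, and the sterol regulatory element core CACCCCAC in 11.8%, against 38.3% and 3.01% of all.

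Of 17 tested glycolytic genes 10 fell and 1 rose, with a median of −0.57. Pgam1, phosphoglycerate mutase, stood at 1468, 1448 and 1489 CPM in ethanol and at 717, 774 and 725 CPM in rapamycin (log2 −0.99, SE 0.04, adjusted p = 6.3e-11, edgeR). Pfkl, the liver-type phosphofructokinase subunit, fell from 352 ± 23.9 to 162 ± 12.2 CPM and the glucose transporter Slc2a1 from 290 ± 7.87 to 144 ± 9.68 CPM (SD, n = 3). Gpi1 was not called, at 609 and 621 CPM. In the pentose phosphate pathway 5 of 7 fell, among them G6pdx, which makes NADPH, from 303 ± 10.3 to 212 ± 10.7 CPM (SD, n = 3), Prps1 by 0.64 and Pgd by 0.34. Of 14 hypoxia genes 9 fell and 2 rose: Ddit4, an inhibitor of mTORC1 signalling, fell by 0.92 and Higd1a by 0.87, and Ndrg1 rose by 0.64.

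Mitochondrial energy genes moved less. In the TCA cycle 14 of 24 fell and 2 rose, with a median of −0.19, and only Idh3a among those of at least 5 CPM fell by more than 0.9 (201 ± 4.02 to 104 ± 5.22 CPM, SD, n = 3). Sdhd of succinate dehydrogenase and the malate dehydrogenase Mdh1 fell by 0.60 and 0.49. Of 64 nuclear genes of oxidative phosphorylation 23 fell and 5 rose, with a median of −0.15. The 23 lower were 13 without the first and 12 without the third rapamycin library, and the 5 higher were 10 without the first and 3 without the second. Cycs, cytochrome c, fell by 0.87 Ndufab1, of complex I, by 0.56 and Cyc1, of complex III, by 0.52. Fatty acid oxidation had 7 higher and 7 lower of 26, and the 7 lower were 4 without the first or the third rapamycin library. Angptl4, an inhibitor of lipoprotein lipase, and the nuclear receptor Ppard fell by 0.63 and 0.37, and the dehydrogenase Acads rose by 0.34.

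Chaperone, antioxidant and iron genes were lower as well. Of 19 genes of the endoplasmic reticulum 17 fell and none rose, with a median of −0.51, and Hsp90b1, an abundant chaperone, went from 1955 ± 87.7 to 966 ± 50.8 CPM (SD, n = 3). Sdf2l1 fell by 0.98 and the disulfide isomerase Pdia3 by 0.59. CCAAT stood in 14 of their 15 promoters (93.3%). Of 24 NRF2 targets and glutathione genes 16 fell and 1, Sod1, rose: Gclc, which limits glutathione synthesis, fell by 0.83, Nqo1 by 0.77 and the glutathione transferases Gsta2 and Gsta4 by 2.01 and 0.99 (Gsta2 is a close copy of Gsta1), while Nfe2l2, which encodes NRF2, was not called (0.04). Besides Tfrc, the iron genes Slc11a2 and Slc40a1 fell by 0.46 and 0.51, and 10 of 15 iron genes fell and none rose.

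FoxO targets and autophagy genes rose. Of 20 FoxO targets and atrophy genes 15 rose and 4 fell, with a median of 0.42 and a summed level of 1624 ± 23.3 CPM in ethanol and 2273 ± 41.1 CPM in rapamycin (SD, n = 3). Fbxo32, the muscle ubiquitin ligase atrogin-1, stood at 104, 110 and 103 CPM in ethanol and at 286, 301 and 286 CPM in rapamycin, without overlap (log2 1.46, SE 0.05, adjusted p = 2.7e-11, edgeR). Irs2, an adaptor of the insulin receptor, rose by 0.96 to 90.4 CPM and Pik3ip1, an inhibitor of PI3-kinase, by 0.88. Foxo1 and Foxo3 rose by 0.50 and 0.44. The 4 that fell were Sesn1, Sesn3, Bnip3 and Fbxo30.

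Of 33 autophagy genes 18 rose and 5 fell, and the 5 that fell were 3 and 2 without the first and the third rapamycin library. Atg14, a subunit of the autophagy PI3-kinase complex, went from 34.8 ± 0.697 to 55.9 ± 1.61 CPM, Rb1cc1, which scaffolds the ULK1 complex, from 168 ± 19.6 to 254 ± 14.9 CPM and Map1lc3a from 116 ± 11.4 to 175 ± 6.25 CPM (SD, n = 3). The LC3 gene Map1lc3b rose by 0.55 and the cargo receptor Sqstm1 by 0.45. The lysosome did not rise as a list: 6 of 39 genes were higher and 7 lower, with a median of 0.05, and the number higher was 10 under RLE scaling and 12 with a minimum count of 50. The cathepsin Ctsf rose 2.58-fold from 13 ± 1.76 to 33.7 ± 1.91 CPM and the cholesterol carrier Npc2 from 1366 ± 44.9 to 2236 ± 88.4 CPM, while the abundant cathepsin Ctsl fell from 1853 ± 54.4 to 1280 ± 40.2 CPM (SD, n = 3).

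Among the 38 tested genes of the mTOR complexes and nutrient sensing 5 rose and 15 fell. The number higher was 8 under RLE scaling. Mtor was not called (0.19), Rptor of mTORC1 fell by 0.24 and Rictor of mTORC2 rose by 0.21. The Rheb-like GTPase Rhebl1 and the arginine sensor Castor1 rose by 0.65 and 0.63. Fkbp1a, which encodes the rapamycin receptor FKBP12, fell by 0.16 from 701 to 627 CPM. In insulin and IGF signalling 8 of 26 rose and 5 fell: the receptor Igf1r rose by 0.51 and the adaptor Irs1 by 0.43, the abundant binding protein Igfbp5 fell by 0.69 from 3287 to 2031 CPM, and Stc2, an inhibitor of PAPP-A, fell by 0.97.

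Proteoglycans and related matrix genes mostly rose, while collagens as a list did not. Of 30 small leucine-rich proteoglycans and other matrix genes 19 rose and 5 fell, with a median of 0.52, and their summed level went from 9214 ± 610 to 14327 ± 733 CPM (SD, n = 3). The 5 that fell were 3 without the third ethanol, the second rapamycin or the third rapamycin library. Fmod, fibromodulin, stood at 211, 161 and 164 CPM in ethanol and at 456, 415 and 452 CPM in rapamycin. Bgn rose by 0.63, Ogn by 0.59 and the elastic fibre protein Fbln5 by 0.89. Collagens and their modifying enzymes had 13 higher and 7 lower of 33, with a median of 0.09 and the same summed level in both groups (26819 ± 2042 and 26817 ± 328 CPM, SD, n = 3). The prolyl hydroxylase P3h2 rose by 0.87, Col12a1 by 0.71 (countable share 23.4%) and Col8a1 by 0.58, while the prolyl hydroxylase subunit P4ha1 fell by 0.69 (countable share 29%), Col6a3 by 0.65 and Col3a1 by 0.20. Among metalloproteinases and their inhibitors 11 of 18 rose and 4 fell: Timp3 went from 856 ± 18.1 to 1508 ± 67.9 CPM and the sheddase Adam19 from 228 ± 5.71 to 138 ± 4.4 CPM (SD, n = 3), and Mmp11 rose by 0.68 (countable share 21.6%). The integrin Itga4 fell by 1.98 from 21.5 to 5.45 CPM and Itga11 rose by 0.73.

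The targets of SRF and YAP had the highest median of any list of at least 5 tested genes (0.72), with 17 of 22 higher and 1, Tagln2, lower. Tagln, an actin-binding protein of smooth muscle, stood at 229, 214 and 231 CPM in ethanol and at 595, 582 and 648 CPM in rapamycin (log2 1.44, SE 0.06, adjusted p = 3.9e-11, edgeR). Smooth muscle actin Acta2 rose from 3852 to 6844 CPM, the myosin light chain Myl9 by 0.90, the LIM protein Ajuba by 0.89 and Ccn1 by 0.80, while Actb was not called (−0.03).

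Immediate early and stress genes were mixed. Of 29 AP-1 and immediate early genes 14 rose and 2, Fosl1 and Spry4, fell. Junb stood at 535, 478 and 551 CPM in ethanol and at 972, 968 and 952 CPM in rapamycin, while Fosl1 went from 99.2 ± 5.08 to 33.2 ± 3.73 CPM (SD, n = 3). Of 18 p53 targets 8 rose and 6 fell: the death gene Bbc3 rose by 0.70 and Trp53inp1 by 0.65, and Aen fell by 0.65. Of 18 NF-kB and chemokine genes 8 rose and 2 fell, with Nfkbia, the inhibitor of NF-kB, up by 0.62, the cytokine gene Csf1 up by 0.50 (countable share 16.3%) and the subunit gene Rel down by 0.43. Of 27 interferon genes 7 rose and 2 fell, and the 7 were 4 without the second ethanol library. Gbp2 rose by 0.89 from 4.59 CPM and Ifit2 fell by 0.39, while the rise of Parp14 (0.38) was lost without the second ethanol, the third ethanol or the second rapamycin library. The EGF-family ligand Areg fell by 0.88 and the ligand Nrg1 rose by 0.53 (countable share 43.7%).

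Muscle differentiation genes were lower. Of 23 tested genes 15 fell and none rose, with a median of −0.83, and several of them were near the limit of counting in these 6 libraries. Myog, the transcription factor that starts differentiation, stood at 15.9, 20.1 and 24.3 CPM in ethanol and at 8.87, 6.53 and 11.5 CPM in rapamycin, without overlap (log2 −1.17, SE 0.17, adjusted p = 4.2e-05, edgeR). Myom2, of the sarcomere M-band, went from 36.9 ± 4 to 18.1 ± 1.71 CPM and the fetal acetylcholine receptor subunit Chrng from 19.7 to 10.2 CPM. Ttn fell by 1.55 with a countable share of 7.96%. In ethanol with the Luc siRNA, Myog and Myom2 stood higher, at 203 and 161 CPM. Ttn stood at 9.96 CPM there and at 10.5 CPM with the Crebl2 siRNA. The fusion genes Mymk and Mymx fell by 1.62 and 1.27 from 2.87 and 0.67 CPM. The E-box CAGCTG of myogenic factors stood in 71.4% of 14 promoters of this list and 15.4% of all 8767, and it reads the same on both strands. The Acta1 promoter (chr8:123894726-123895025, minus strand) is shown with its E-box in capitals because Acta1, skeletal actin, had the largest difference between the siRNAs among the list's members of at least 5 CPM.
Acta1: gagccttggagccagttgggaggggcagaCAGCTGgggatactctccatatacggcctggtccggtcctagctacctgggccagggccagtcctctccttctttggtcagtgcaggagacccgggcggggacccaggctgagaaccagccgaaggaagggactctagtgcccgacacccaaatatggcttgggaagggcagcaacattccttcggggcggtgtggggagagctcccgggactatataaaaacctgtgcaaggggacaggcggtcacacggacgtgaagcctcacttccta

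Myoblast genes changed in both directions. Myod1 rose from 190 to 246 CPM, Cdh15, the muscle cadherin, went from 862, 792 and 925 CPM to 628, 667 and 670 CPM, and Itga7 from 1276 ± 94.9 to 951 ± 52.8 CPM (SD, n = 3). Heyl, a Notch target, fell by 1.20 and Hey1 by 0.72, while the Notch modifier Lfng rose by 0.48. Of 11 myoblast genes 2 rose and 5 fell, and the 5 were 3 without the first rapamycin library. Of 17 Notch genes 6 rose and 7 fell, and the 7 were 3 without that library. The 7 markers of differentiated muscle summed to 60.8 to 73.7 CPM in ethanol and 37.9 to 48.2 CPM in rapamycin. Acta1 and Myog made up most of this sum. Of the 7 markers, 3 stayed under 1 CPM in all 6 libraries, among them Myh3 and Tnnt3 with countable shares of 1.21% and 2.32%.

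Noncoding RNAs followed. Zfas1, a host of small nucleolar RNAs, stood at 116, 116 and 123 CPM in ethanol and at 332, 383 and 344 CPM in rapamycin (log2 1.57, SE 0.06, adjusted p = 2e-11, edgeR). Neat1, the scaffold of paraspeckles, rose from 31.8 ± 7.55 to 69.7 ± 3.73 CPM, and the imprinted H19 fell from 1485 ± 90.8 to 522 ± 52 CPM (SD, n = 3). Brip1os fell by 0.80. The strand setting of the counting is not given in the sources used here, so reads of Zfas1 and Brip1os cannot be told apart from those of genes on the other strand. Of 15 hosts of small nucleolar RNAs 3 rose and 3 fell: Epb41l4aos rose by 1.04 from 7.8 CPM and Snhg17 fell by 0.39. Among clustered histones 6 of 18 rose and 3 fell, with Hist1h1c at 65.5 ± 2.82 and 108 ± 11.1 CPM (SD, n = 3) and Hist1h2bc up by 0.49.

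The same treatment with the Luc siRNA called 5441 genes, 41.1% of those tested. Of the 6001 genes called with the Crebl2 siRNA, 4315 were also called in the same direction with the Luc siRNA, 71.9% of the first set and 79.3% of the second. The 2 contrasts share no library. Of the genes that changed at least 2-fold with the Crebl2 siRNA, 217 of 333 were also higher and 464 of 528 also lower with the Luc siRNA. The test of the difference between the 2 rapamycin changes called 159 genes, 1.2% of those tested, 81 more positive and 78 more negative with the Crebl2 siRNA, and 1892 had an unadjusted p under 0.05 (edgeR). The count was 94 without the second Luc ethanol library, 88 without the third Luc rapamycin library, 102 without the first Crebl2 ethanol library and 85 without the third Crebl2 rapamycin library (edgeR), and DESeq2 called 391. The split between directions depended on the setting: it was 89 more positive and 49 more negative under RLE scaling, 310 and 105 without the count filter, 67 and 18 without the third Crebl2 rapamycin library, 70 and 18 without the third Luc rapamycin library, 88 and 24 without the first, 136 and 36 without the second, 96 and 26 without the first Crebl2 rapamycin library and 109 and 32 without the second. A difference was not called for 5869 of the 6001 genes (97.8%), which does not show that their changes were alike. In simulated counts the test recovered 65.3% of 2-fold and 8% of 1.25-fold differences, and 8.11% of its 111 calls were false. Few genes were altered in these counts: 50 by 1.25-fold, 50 by 1.5-fold, 49 by 2-fold and 50 by 4-fold. This was a single draw with all unaltered genes equal between groups.

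**Figure D4:**
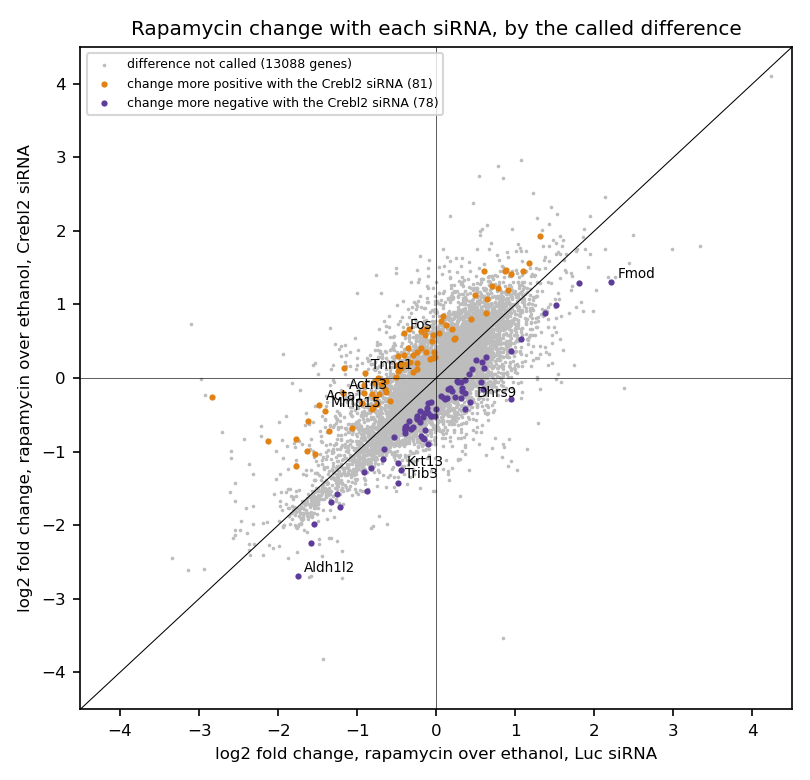
Log2 fold change of rapamycin over ethanol with the Crebl2 siRNA (vertical axis) against that with the Luc siRNA (horizontal axis) for 13247 tested genes. Orange points are the 81 genes whose change was called more positive with the Crebl2 siRNA and purple points the 78 called more negative, and the diagonal marks equal changes.

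Among genes of at least 5 CPM, sarcomere genes and Fos led the positive differences. Acta1 stood at 35.4, 32.7 and 39.4 CPM in ethanol and at 25.8, 26.6 and 31.9 CPM in rapamycin with the Crebl2 siRNA, against means of 287 ± 45.4 and 103 ± 9.64 CPM with the Luc siRNA (SD, n = 3). Its fall was 0.36 on the log2 scale against 1.48, a difference of 1.13 (SE 0.16, adjusted p = 0.0025, edgeR). The fall with the Crebl2 siRNA was itself no longer called without the third ethanol, the first rapamycin or the second rapamycin library. Actn3, the fast-fibre actinin, went from 183 ± 11.9 to 160 ± 8.93 CPM (SD, n = 3), a fall of 0.20 against 1.18, also lost without the third ethanol, the first rapamycin or the third rapamycin library. Tnnc1, slow troponin C, was not called with the Crebl2 siRNA (20.7 and 21.8 CPM) and its log2 change with the Luc siRNA was −0.90. The membrane protease Mmp15 fell by 0.45 against 1.41. Fos rose from 18.1, 16.4 and 16.4 CPM to 23.8, 27.7 and 26.5 CPM with the Crebl2 siRNA, without overlap, and its log2 change with the Luc siRNA was −0.41 (difference 1.03, adjusted p = 0.001, edgeR). Of the 23 muscle differentiation genes 6 had a called difference, all positive, and the list's median change was −0.83 with the Crebl2 siRNA and −1.25 with the Luc siRNA. These genes also started lower with the Crebl2 siRNA in the case of Acta1 and Tnnc1, but not of Actn3 (183 and 179 CPM in ethanol).

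The negative differences were led by genes of the ATF4 list and by fibromodulin. Aldh1l2 fell by 2.69 with the Crebl2 siRNA and by 1.75 with the Luc siRNA (difference −0.94, SE 0.16, adjusted p = 0.0075, edgeR), and Trib3 fell by 1.42 against 0.48. Aldh1l2 and Trib3 stood higher in ethanol with the Crebl2 siRNA, at 12.5 and 10.7 CPM against 8.61 and 6.56 CPM with the Luc siRNA, and lower in rapamycin, at 1.94 and 3.99 CPM against 2.57 and 4.7 CPM. In the ATF4 list 5 of 29 genes had a called difference, all negative: Trib3, Chac1, Aldh1l2, Slc7a5 and Slc1a5. Fmod rose by 1.30 with the Crebl2 siRNA and by 2.21 with the Luc siRNA. The keratin Krt13 fell by 1.25 against 0.45, but its difference was lost under RLE scaling and without any library but the second Crebl2 rapamycin library or the first Luc ethanol library. G6pdx fell by 0.52 against 0.06 (difference −0.46, adjusted p = 0.0029, edgeR).

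**Figure D5:**
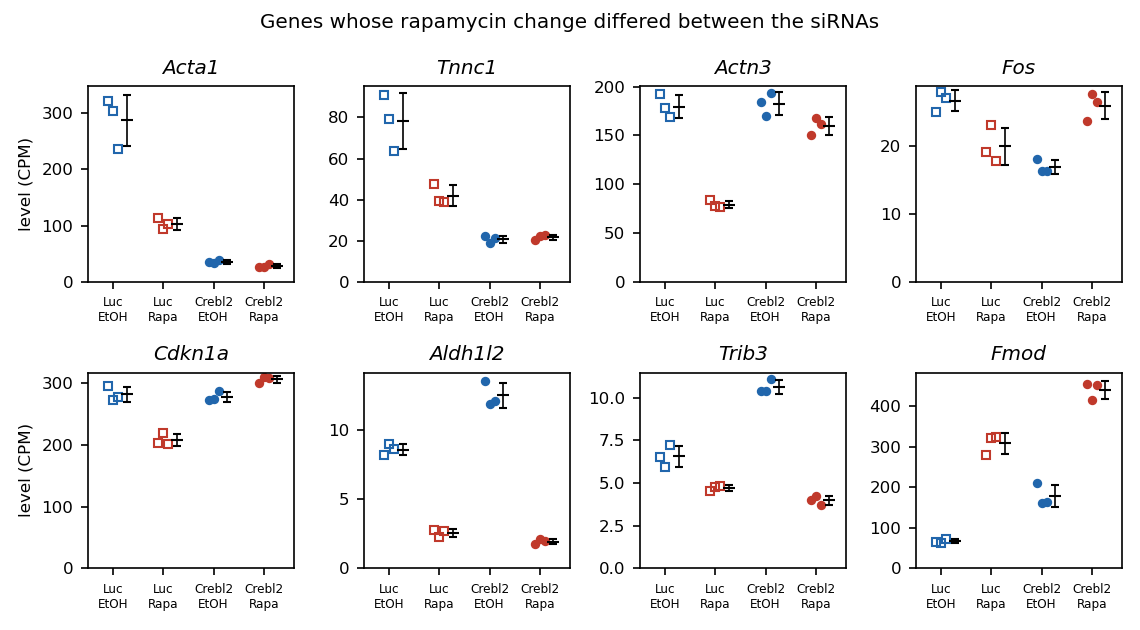
Level in CPM of 8 genes in all 12 libraries, by siRNA and treatment: open squares for the Luc siRNA, filled circles for the Crebl2 siRNA, blue for ethanol and red for rapamycin, with the mean and SD in black. Acta1, Tnnc1 and Actn3 fell by more than 0.8 on the log2 scale with the Luc siRNA only, and Fos and Cdkn1a were higher in rapamycin with the Crebl2 siRNA.

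In all, 27 genes were called in opposite directions by the 2 siRNAs, 14 of them higher with the Crebl2 siRNA and lower with the Luc siRNA. Among these were the p53 targets Cdkn1a (0.14 and −0.44) and Pmaip1 (0.18 and −0.50), the growth-arrest gene Gadd45g (0.22 and −0.33), the bHLH repressor Hes6 (0.31 and −0.29), the Notch regulator Dtx4 (0.35 and −0.24) and the muscle ubiquitin ligase Trim55 (0.19 and −0.38). Of the 13 with the reverse pattern, Pcolce2, which aids collagen processing, had log2 changes of −0.27 and 0.31, Alcam −0.20 and 0.37, Dkk2 −0.26 and 0.24, Col6a1 −0.27 and 0.13 and Fbln1 −0.17 and 0.20. These genes were chosen after their values were seen. The test of the difference called each of these 11 genes (adjusted p of 0.017 or below, edgeR). Among others of the 27 it did not call Eogt, Zfp334, Tfb1m and Myl12a (adjusted p of 0.068 to 0.082, edgeR).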

How the data were processed

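The deposited values are raw read counts per Ensembl transcript, 1 library per file. Per the submitters' processing notes, the authors used Trim Galore, TopHat and HTSeq, and both mm9 and GRCm38 are named as builds. The annotation release and the strand setting are not given in the sources used here. Per the labels' protocols the libraries were stranded total RNA.

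Counts were summed per gene, and gene names, types and positions came from the GRCm38 tables. Genes were kept by filterByExpr at a minimum count of 10, scaled with TMM factors and compared by the quasi-likelihood method of edgeR 4.0.16 in R 4.3.3, in one model over the 12 libraries (4 groups of 3), with Benjamini-Hochberg adjustment over 13247 genes. DESeq2 1.42.0 was an alternative. The common biological coefficient of variation was 6.85%. The test was also run on simulated data of 13030 genes, in a single draw. For the rapamycin contrast with the Crebl2 siRNA it recovered 72.9% of 48 changes of 2-fold and 34.7% of 49 of 1.25-fold. Of 123 calls 4.07% were false. Few genes were altered there, while 45.3% of tested genes were called in the data, so these shares do not measure the real contrast.

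The genes named are Crebl2, the 10 largest rises and falls among called protein-coding genes of at least 5 CPM without overlap, the 3 most changed called members of each list, the 5 largest differences between siRNAs in each direction, the 5 most changed genes of at least 500 CPM and the 2 most changed long noncoding RNAs in each direction. Further list members are named as examples. The members and lists were chosen with earlier results of these data known.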

Additional observations from a re-analysis of the deposited data

Results flagged for a closer look

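For 23 of the named genes the test of the difference between the rapamycin changes with the 2 siRNAs was called (edgeR, adjusted p under 0.05). Of these, Acta1, Fos, Actn3, Tnnc1, Mmp15, Aldh1l2, Trib3, Fmod, Krt13 and Dhrs9 were named for their large differences in this same test. Aldh1l2 was also named as one of the largest falls. The count of 23 is therefore partly a product of the selection. Over all tested genes the test called 1.2%. Each value below subtracts the log2 change under the Luc siRNA from the one under the Crebl2 siRNA. It was positive for Acta1 (1.13), Fos (1.03), Actn3 (0.99), Tnnc1 (0.97), Mmp15 (0.96), Hey1 (0.64), Ypel1 (0.62), Fbxo32 (0.59), Erbb3 (0.59), Hist1h1c (0.59), Heyl (0.58), Myom2 (0.50), Cdh15 (0.41), Zfas1 (0.40) and Itga7 (0.39). It was negative for Aldh1l2 (−0.94), Trib3 (−0.94), Fmod (−0.91), Krt13 (−0.80), Dhrs9 (−0.75), Lipg (−0.64), G6pdx (−0.46) and Acat2 (−0.35).

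Of the positive genes, Heyl, Hey1, Itga7, Cdh15, Myom2 and Mmp15 fell with both siRNAs and less with the Crebl2 siRNA: Heyl by 1.20 against 1.77 and Hey1 by 0.72 against 1.36. The difference of Itga7 was lost with the replicate block, and those of Cdh15 and Myom2 with it and without some single libraries. Without some single libraries the differences of Ypel1, Zfas1, Lipg, Dhrs9 and Acat2 were lost too. Fbxo32 and Ypel1 rose with both and more with the Crebl2 siRNA, by 1.46 against 0.87 and by 1.93 against 1.31. Erbb3, a receptor for neuregulins, fell by 0.22 against 0.81, and its fall with the Crebl2 siRNA was lost without the third ethanol or the third rapamycin library. The linker histone gene Hist1h1c had log2 changes of 0.72 and 0.12. Dhrs9 had changes of −0.32 and 0.43, and its fall with the Crebl2 siRNA was lost without the second ethanol, the first rapamycin or the third rapamycin library.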

How the results depend on the processing

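The number of genes that rapamycin changed with the Crebl2 siRNA was 6001, and 861 with a change of at least 2-fold. With only the compared libraries in the fit, 5951 of 12512 tested genes were called, 2883 higher and 3068 lower. The excess of lower genes thus varied in size. Of called genes 43.6% were higher as reported, 41.9% without the first ethanol library and 48.4% with only the compared libraries, the lowest and highest shares of all settings. Leaving out 1 library gave 5206 to 5565 called genes, and every gene called in both a setting and the reported analysis kept its direction. Fitted with the replicate number as a block, 5693 were called, and same-numbered ethanol and rapamycin libraries did not deviate together (r of −0.0283, −0.0633 and 0.0244). The difference between siRNAs moved most: 159 genes as reported, 391 with DESeq2, 415 without the count filter, 91 with the replicate block and 85 to 172 when 1 library was left out. For Crebl2 the log2 rise lay between 0.54 and 0.83 when 1 library was left out. Over 2182 alternative values for 159 named gene changes, 18 values in 6 genes (Acta1, Actn3, Dhrs9, Erbb3, Parp14 and Psma1) lost their call and none reversed. Of 433 alternative values for 23 differences, 60 in 9 genes (Acat2, Cdh15, Dhrs9, Itga7, Krt13, Lipg, Myom2, Ypel1 and Zfas1) lost theirs. Of 1428 list counts 124 moved by more than 1.5 times, the cause of which was not tested except where fewer genes entered by construction. Transcripts tested one by one, an alternative chosen after seeing the data, gave 6200 calls of 14494. Genes of low count or low countable share are the least certain. The labels give no extraction or sequencing batch.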

Other observations

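Circadian clock genes changed in both directions, with 7 of 17 tested members higher and 5 lower. Cry1, a repressor of the clock, fell from 29.7 to 16.7 CPM (log2 −0.83), and the activator Clock fell from 11.6 to 7 CPM, with a countable share of 26.5%. The output factor Dbp rose from 3.37 to 7.3 CPM (countable share 31%), the repressors Nr1d1 and Nr1d2 rose by 0.31 each, and Per2 was not called (25.1 and 23.5 CPM). The summed level of the 17 genes was 654 ± 13.6 CPM in ethanol and 683 ± 14.3 CPM in rapamycin (SD, n = 3), with overlap between the groups.

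Among 1230 genes with at least 2 tested transcripts, 21 had transcripts called in opposite directions. Samhd1-201, the main transcript of a nucleotide triphosphohydrolase, rose from 80.9 to 99.5 CPM (log2 0.30), and Samhd1-203 went from 6.04 to 3.81 CPM (−0.67). For the chromatin protein gene Hmgb1, Hmgb1-201 fell from 41.8 to 22.9 CPM and Hmgb1-202 rose from 0.98 to 2.03 CPM. For the collagen gene Col6a2, Col6a2-201 fell from 226 to 201 CPM and Col6a2-202 rose from 43.3 to 60.9 CPM. For the kinase gene Csnk1e, Csnk1e-203 fell from 29.7 to 22.9 CPM and Csnk1e-201 rose from 123 to 152 CPM. These transcripts were chosen after their values were seen, and only reads that fall on bases of a single transcript are counted.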
